A study of Mus musculus with 6 samples.

Results

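The transcripts described here are those of 10 genes of the YAP and TEAD transcription module, read from the gene symbol rows of a count table of 35976 genes. They are the co-activators Yap1 and Wwtr1 (which encodes TAZ), the DNA-binding factors Tead1, Tead2 and Tead3, and the target genes Ctgf (also called Ccn2), Cyr61 (also called Ccn1), Ankrd1, Amotl2 and Lats2. All 10 were in the table and passed the filter on low counts, which left 13761 genes to test. The fewest reads any of them had in a library was 109, for Ankrd1. Mouse chondrocytes had been taken at embryonic day 18.5 from hind limb articular cartilage of C57BL/6 x 129S4/SvJae embryos, grown on plastic for 16 population doublings and kept on doxycycline at 2 µg/ml, which induces an H3.3 histone transgene. The 3 H3K9M libraries (replicates 1, 3 and 5) come from cells with a lysine-to-methionine H3.3 mutant, and the labels describe H3K9 methylation as suppressed. The 3 H3WT libraries (replicates 1, 2 and 4) come from cells that expressed wild-type H3.3 instead, so both groups carried an induced transgene and received doxycycline. The labels do not say whether the libraries came from separate embryos, and p-values then measure only the spread between these samples. The comparison asks how transcripts of expanded chondrocytes differ when this methylation is suppressed.

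YAP and TAZ are co-activators that bind no DNA by themselves. When kinases of the Hippo pathway, LATS1 and LATS2 among them, phosphorylate them they are held in the cytoplasm, and on stiff substrates, in spread cells or at low density they enter the nucleus and act through TEAD factors. Ctgf, Cyr61 and Ankrd1 are the most used readouts of that activity, while Amotl2 and Lats2 are targets that feed back on YAP. In chondrocytes the pathway is known for its response to culture on rigid plastic and for effects on differentiation. It is controlled largely by protein phosphorylation and location, which transcript counts do not measure.

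TEAD factors bind the hexamer GGAATG, which reads CATTCC on the opposite strand, so the windows of 250 bases before the annotated start sites were searched for it on both strands (RefSeq, GRCm38.p6). Windows were found for 8 of the 10 genes, 12 windows in all, and there were none for Tead1 and Ctgf. The hexamer was present in 8 of the 12 windows, the single Wwtr1 site being counted in 2 that overlap, against 12.6% of the 32851 windows of the same length in the table. These windows belong to 6 of the 8 genes, some of which have more than 1. Those of Tead2 and Lats2 held none. The 9 sites are shown because the hexamer stands in windows of the target genes Cyr61, Amotl2 and Ankrd1 and also of Yap1 and Wwtr1. Among the TEAD genes it stands in those of Tead3 alone. Each is turned to read GGAATG, which is in capitals, with 12 bases on either side.
Cyr61 (chr3:145650071-145650100, plus strand): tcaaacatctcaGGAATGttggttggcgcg
Amotl2 (chr9:102717727-102717756, minus strand): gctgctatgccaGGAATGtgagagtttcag
Ankrd1, far site (chr19:36120037-36120066, minus strand): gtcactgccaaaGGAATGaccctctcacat
Ankrd1, near site (chr19:36119950-36119979, minus strand): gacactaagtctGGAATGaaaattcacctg
Yap1 (chr9:8004720-8004749, minus strand): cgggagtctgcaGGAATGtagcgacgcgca
Wwtr1 (chr3:57576029-57576058, minus strand): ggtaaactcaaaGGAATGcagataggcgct
Tead3, first start (chr17:28350970-28350999, minus strand): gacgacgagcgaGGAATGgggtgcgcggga
Tead3, second start, far site (chr17:28350706-28350735, plus strand): gccggaatgtacGGAATGagcccggccgga
Tead3, second start, near site (chr17:28350697-28350726, plus strand): agggggatggccGGAATGtacggaatgagc

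Among the target genes, the Cyr61 site starts 103 bases before the start of transcription and the Amotl2 site 65 bases before an annotated start that lies inside the gene, both on the strand opposite to the gene. The Ankrd1 sites start 210 and 123 bases before its start, both on the gene's strand. GENCODE M21 extends an exon of Ankrd1 over that whole window, and the Amotl2 site and both sites at the second Tead3 start also lie in exons of their genes in that annotation. In the second Tead3 window, whose start also lies inside the gene, the hexamer occurs in a pair, at 123 and 114 bases, so these stretches overlap. The whole Cyr61 window is given because this gene had the largest difference among the genes lower in H3K9M (chr3:145649986-145650235, minus strand), with the hexamer in capitals as CATTCC.
Cyr61 window: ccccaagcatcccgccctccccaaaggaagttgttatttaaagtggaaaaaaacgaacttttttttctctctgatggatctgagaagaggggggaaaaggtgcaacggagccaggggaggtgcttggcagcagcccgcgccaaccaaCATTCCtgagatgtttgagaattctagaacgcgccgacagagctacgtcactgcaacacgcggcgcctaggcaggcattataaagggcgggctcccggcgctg
The CArG box, bound by serum response factor, which drives many of the same targets, was in none of the members' windows and in 1.47% of all windows. A match is a description of letters, and the files hold no measurement of binding.

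The 6 libraries held 15113675 to 19606082 counts each. With the test across all genes (edgeR quasi-likelihood, p adjusted over 13761 genes) 0 genes passed an adjusted p of 0.05 (0.00%, against 365 genes with DESeq2), 1677 (12.2%) had an unadjusted p under 0.05, and for 2671 (19.4%) the groups did not overlap. All 13 chondrocyte markers found in the table were tested. Their summed level was 7368 to 11598 CPM (TMM-normalised counts scaled to library size) in H3K9M and 7290 to 19674 CPM in H3WT. All 13 were lower in H3K9M, or 10 of 13 without H3WT replicate 2. At an unadjusted p under 0.05 there were 2 (against 5.77% of all genes lower), and 0 at an adjusted p under 0.05. Of 8 endothelial markers, Cdh5, Tie1, Emcn and Cldn5 were at 0, and the sum of the 8 was at most 2.28 CPM in any library. Of 8 macrophage and blood markers, Ptprc, Adgre1, Aif1 and Hbb-bs were at 0, and the 8 summed to at most 16.5 CPM. Summed over 8 genes, fibroblast markers were lowest in H3WT replicate 2 (9762 CPM) and H3K9M replicate 3 (11722 CPM) and 23085 to 34679 CPM in the other 4 libraries. Col1a1, Col1a2 and Col3a1 made up most of that sum. Pdgfra (243 and 236 CPM) and Lum (101 and 144 CPM) were highest in those same 2 libraries.

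Across the 10 genes, 8 were lower in H3K9M in the reported fit and in its 14 alternatives. In the reported fit their log2 differences (H3K9M minus H3WT) ran from -0.69 to -0.16, that of Ankrd1 was 2.69, and that of Wwtr1, whose sign turned with the scaling, was -0.05. None of the 10 passed an adjusted p of 0.05. At an unadjusted p under 0.05 there were 5: Tead2, Cyr61, Amotl2 and Lats2 lower (4 of 10, against 5.77% of all genes tested) and Ankrd1 higher (1 of 10, against 6.42%). The groups did not overlap for 3 of 10 genes, Tead2 and Lats2 lower (8.68% of all genes) and Ankrd1 higher (10.7%). The median log2 difference of the 10 was -0.54, and that of all genes tested was -0.003. Cells of a bulk culture that hold less of a transcript and fewer cells that hold it cannot be told apart here.

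**Figure D1:**
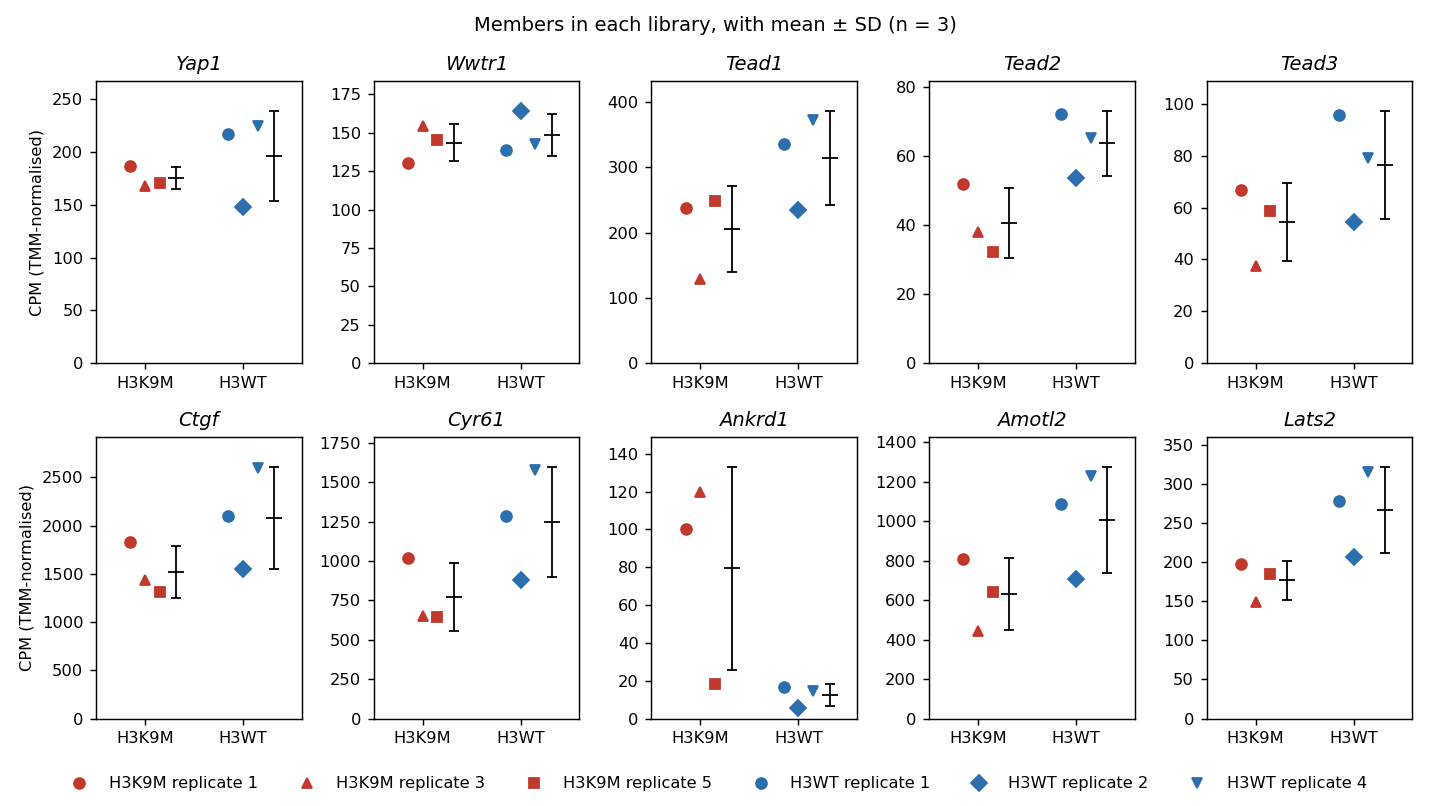
TMM-normalised CPM of each of the 10 genes (vertical axes, each from 0) in the 3 H3K9M libraries (red) and the 3 H3WT libraries (blue), 1 symbol per replicate, with the mean and SD of each group in black. For 8 genes H3WT replicates 1 and 4 lie above all H3K9M libraries and H3WT replicate 2 lies lower, while Ankrd1 is above 100 CPM in H3K9M replicates 1 and 3 only.

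The co-activators showed the smallest differences. Yap1 (chr9:7931999-8004638) was at 187, 168 and 171 CPM in H3K9M replicates 1, 3 and 5 and at 217, 148 and 225 CPM in H3WT replicates 1, 2 and 4. H3WT held both the highest and the lowest of the 6 values, and all H3K9M values lay between them. The means were 175 ± 10.4 CPM and 196 ± 42.4 CPM (SD, n = 3 each), a log2 difference of -0.16 with SE 0.17 (95% interval -0.56 to 0.23, adjusted p 0.751, edgeR). Leaving out H3WT replicate 4, 1 or 2 gave -0.05, -0.09 and -0.32, and library size alone gave -0.10. Wwtr1 (chr3:57455644-57575910) was at 131, 154 and 145 CPM in H3K9M and 139, 164 and 143 CPM in H3WT. These values were interleaved, and the log2 difference was -0.05 with SE 0.12 (95% interval -0.33 to 0.24, adjusted p 0.911), with its sign turning when library size alone was the scaling (0.007) and without H3K9M replicate 1 (0.02) or H3WT replicate 2 (0.04). For both genes the interval excludes a 2-fold change in either direction.

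Whether Yap1 or Wwtr1 was the more abundant depended on the length used. Per kilobase of the union of exons, in H3K9M (replicates 1, 3, 5) the ratio of Yap1 to Wwtr1 was 0.740, 0.561 and 0.607, and in H3WT (replicates 1, 2, 4) it was 0.807, 0.464 and 0.812. With the longest transcript as the length it was 1.27, 0.966 and 1.05 against 1.39, 0.800 and 1.40, above 1 in 4 of the 6 libraries. With either length the groups overlapped (two-sided exact permutation p 0.8, where 3 libraries against 3 allow no p below 0.1). H3WT replicate 2 had the lowest Yap1 and the highest Wwtr1 value of the 6. Over the 6 libraries Pearson's r of their log2 CPM was -0.70 and Spearman's rho -0.77 (exact permutation p 0.113 and 0.103, adjusted over 45 pairs 0.195 and 0.185), and r was -0.59 without the 2 libraries farthest from the Yap1 median.

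The TEAD genes encode the factors that place YAP and TAZ on DNA, and all 3 were lower in H3K9M. Tead1 (chr7:112679356-112906784) was at 238, 129 and 248 CPM in H3K9M replicates 1, 3 and 5 and at 336, 234 and 373 CPM in H3WT replicates 1, 2 and 4. H3WT replicate 2 lay among the H3K9M values and H3K9M replicate 3 lay far below every other library. The log2 difference was -0.62 with SE 0.28 (adjusted p 0.425, edgeR), and it was -0.36 without H3K9M replicate 3. Tead2 (chr7:45215792-45233468) was at 51.8, 37.9 and 32.1 CPM against 72.0, 53.5 and 65.0 CPM. Its groups did not overlap, though H3K9M replicate 1 and H3WT replicate 2 nearly met. The means were 40.6 ± 10.2 CPM and 63.5 ± 9.33 CPM (SD, n = 3 each), a log2 difference of -0.65 with SE 0.20 (95% interval -1.12 to -0.18, adjusted p 0.287). Tead3 (chr17:28331671-28350805) was at 66.7, 37.6 and 58.7 CPM against 95.7, 54.5 and 79.2 CPM. Its groups overlapped through H3WT replicate 2, and the log2 difference was -0.49 with SE 0.27 (adjusted p 0.489), or -0.28 without H3K9M replicate 3 and -0.30 without H3WT replicate 1. An offset for length and GC content took Tead3 to -0.29, Tead1 to -0.42 and Tead2 to -0.46.

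Tead1 was the most abundant TEAD transcript per kilobase in every library. Its share of the sum of Tead1 to Tead4 was 41.2%, 34.8% and 46.0% in H3K9M (replicates 1, 3, 5), and in H3WT (replicates 1, 2, 4) it was 42.5%, 40.3% and 47.3%. The groups overlapped (exact permutation p 0.5). Tead4, the fourth paralog and not among the 10 genes, was the least abundant, with 7.21% to 15.8% of that sum over the 6 libraries. It was at 15.4 to 21.5 CPM in H3K9M and 15.1 to 22.7 CPM in H3WT, and its log2 difference of -0.11 with SE 0.23 (adjusted p 0.888) did not pass the test.

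Ctgf and Cyr61 encode secreted matricellular proteins of the CCN family and were the most abundant transcripts of the group per kilobase. Ctgf (chr10:24595442-24598683) was at 1827, 1432 and 1309 CPM in H3K9M replicates 1, 3 and 5 and at 2101, 1547 and 2600 CPM in H3WT replicates 1, 2 and 4. H3WT replicate 2 lay within the H3K9M values and the other H3WT libraries lay above all of them. The means were 1523 ± 270.5 CPM and 2083 ± 527 CPM (SD, n = 3 each), a log2 difference of -0.45 with SE 0.22 (95% interval -0.96 to 0.06, adjusted p 0.452, edgeR), and it was -0.26 without H3WT replicate 4. Cyr61 (chr3:145646971-145649985), whose window with the TEAD hexamer is shown above, was at 1021, 649.9 and 647.5 CPM against 1282, 880.5 and 1578 CPM. H3WT replicate 2 lay below H3K9M replicate 1, so the groups overlapped. The means were 773 ± 215 CPM and 1247 ± 350.1 CPM, a log2 difference of -0.69 with SE 0.26 (95% interval -1.30 to -0.08, adjusted p 0.361). With the length and GC offset Ctgf was at -0.52 and Cyr61 at -0.74.

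In every library Ctgf exceeded Cyr61 per kilobase of exon. Their ratio was 1.26, 1.55 and 1.43 in H3K9M (replicates 1, 3, 5), and in H3WT (replicates 1, 2, 4) it was 1.16, 1.24 and 1.16. H3K9M held the 3 highest ratios, and the two-sided exact permutation p of 0.1 is the smallest that 3 libraries against 3 can give (0.6 adjusted over the 6 ratios computed, which were chosen after the values were seen).

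Amotl2 and Lats2 are feedback targets: angiomotin-like 2 binds YAP and holds it out of the nucleus, and LATS2 is the kinase that phosphorylates it. Amotl2 (chr9:102717091-102733418) was at 810.4, 442 and 642 CPM in H3K9M replicates 1, 3 and 5 and at 1086, 709.7 and 1228 CPM in H3WT replicates 1, 2 and 4. The groups overlapped because H3WT replicate 2 lay below H3K9M replicate 1. The means were 631 ± 184 CPM and 1008 ± 268 CPM (SD, n = 3 each), a log2 difference of -0.67 with SE 0.27 (95% interval -1.30 to -0.05, adjusted p 0.382, edgeR). Lats2 (chr14:57689662-57746212) was at 197, 148 and 184 CPM against 278, 206 and 315 CPM, with every H3WT value above every H3K9M value. The means were 177 ± 25.2 CPM and 266 ± 55.4 CPM, a log2 difference of -0.59 with SE 0.18 (95% interval -1.02 to -0.17, adjusted p 0.280). With the length and GC offset Amotl2 was at -0.46 and Lats2 at -0.45.

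Ankrd1 encodes an ankyrin repeat protein of muscle sarcomeres and nuclei and was the one gene of the group that was higher in H3K9M. Ankrd1 (chr19:36111965-36119844) was at 100.2, 119.7 and 18.5 CPM in H3K9M replicates 1, 3 and 5 and at 16.6, 5.66 and 14.8 CPM in H3WT replicates 1, 2 and 4. H3K9M replicates 1 and 3 were far above the rest, and H3K9M replicate 5 lay just above the highest H3WT library. The means were 79.5 ± 53.7 CPM and 12.3 ± 5.85 CPM (SD, n = 3 each), 6.45-fold in the fit (log2 difference 2.69, SE 0.76, 95% interval 0.83 to 4.55, adjusted p 0.280, edgeR). With 1 library left out at a time it ran from 2.28 without H3K9M replicate 3 to 3.17 without H3K9M replicate 5.

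Skeletal muscle markers were high in the same libraries as Ankrd1. The 14 markers summed to 170, 240 and 28.4 CPM in H3K9M replicates 1, 3 and 5 and to 33.2, 13.2 and 29.4 CPM in H3WT replicates 1, 2 and 4. Myf5, Myf6, Myh8 and Pax7 were at 0 in every library. Of the 6 markers that passed the filter all were higher in H3K9M. At an unadjusted p under 0.05 there were 4 (against 6.42% of all genes tested, higher), and 0 at an adjusted p under 0.05. Myod1 and Myh3, with few or 0 reads in H3WT, passed the filter only through the H3K9M libraries, so it partly set their direction. Myod1, a master regulator of muscle fate, had 291, 1179 and 84 reads in H3K9M and 0, 20 and 0 in H3WT. Des, which encodes the muscle intermediate filament desmin, had 1209, 2029 and 172 reads against 87, 131 and 29. Acta1, an actin also made outside skeletal muscle, carried most of the H3WT sums of replicates 1 and 4 (26.2 and 24.0 CPM). Without it the other 13 markers summed to 138, 207 and 22.4 CPM in H3K9M and to 7.02, 9.91 and 5.36 CPM in H3WT, a comparison chosen after the values were seen, in which all 3 H3K9M libraries were above H3WT, as for Ankrd1. Myod1, Myh3, Tnnt3 and Des were each higher in every H3K9M library than in any H3WT library (4 of 6 tested, against 10.7% of all genes). Among them only Des also met the filter in the H3WT libraries alone, so that share is no fair background either. For Acta1 and Neb the groups overlapped. The part of muscle cells or of muscle genes in the Ankrd1 difference was not tested.

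**Figure D2:**
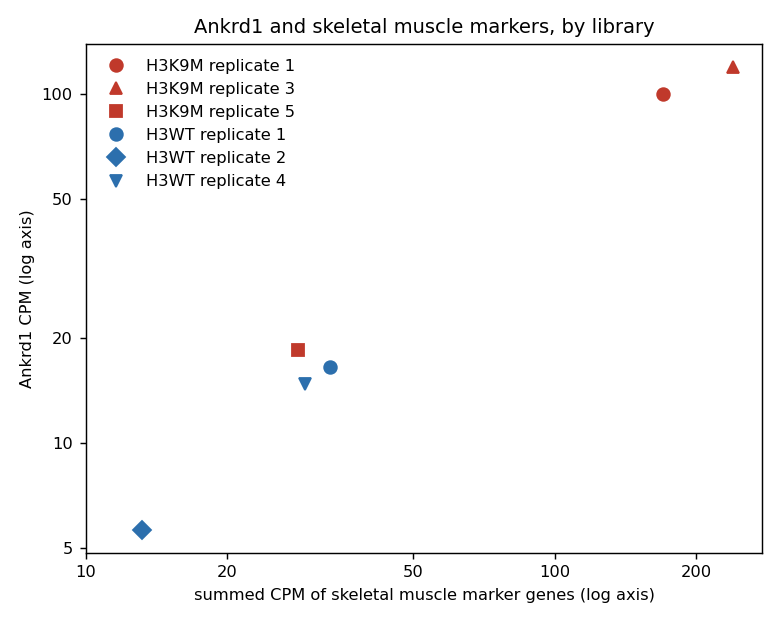
Ankrd1 level (vertical, CPM, log axis) against the summed CPM of 14 skeletal muscle marker genes (horizontal, log axis) in the 6 libraries, H3K9M in red and H3WT in blue. H3K9M replicates 1 and 3 stand at the upper right, at 170 and 240 CPM of marker sum, and the other 4 libraries are at or below 33.2 CPM. Without Acta1 the sum is 22.4 CPM in H3K9M replicate 5 and at most 9.91 CPM in H3WT.

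The 8 genes other than Ankrd1 and Wwtr1 varied together across libraries. All 28 of their pairs had a positive Pearson's r of log2 CPM over the 6 libraries, from 0.62 to 0.98 with a median of 0.84. Ankrd1 and Wwtr1, set apart here, are the 2 that ran otherwise, so this shared sign follows in part from the choice. Over all 45 pairs of the 10 genes, 29 were positive and r ran from -0.70 to 0.98. For Ctgf with Cyr61 r was 0.98 and rho 1 (exact permutation p 0.00139 and 0.00278, adjusted over 45 pairs 0.0625 and 0.115), and r was 0.96 without the 2 libraries farthest from the Ctgf median. For Amotl2 with Lats2 r was 0.98 and rho 0.94 (exact permutation p 0.00278 and 0.0167, adjusted 0.0625 and 0.115), and 0.93 without the 2 farthest from the Amotl2 median. None of the 45 pairs of the 10 genes passed an adjusted p of 0.05. Within a group the 3 libraries are too few to give a correlation, and the points share the group difference and the library scaling. The Pearson's r of Ankrd1 with these 8 genes ran from -0.60 to 0.06 and that of Wwtr1 from -0.70 to -0.28.

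**Figure D3:**
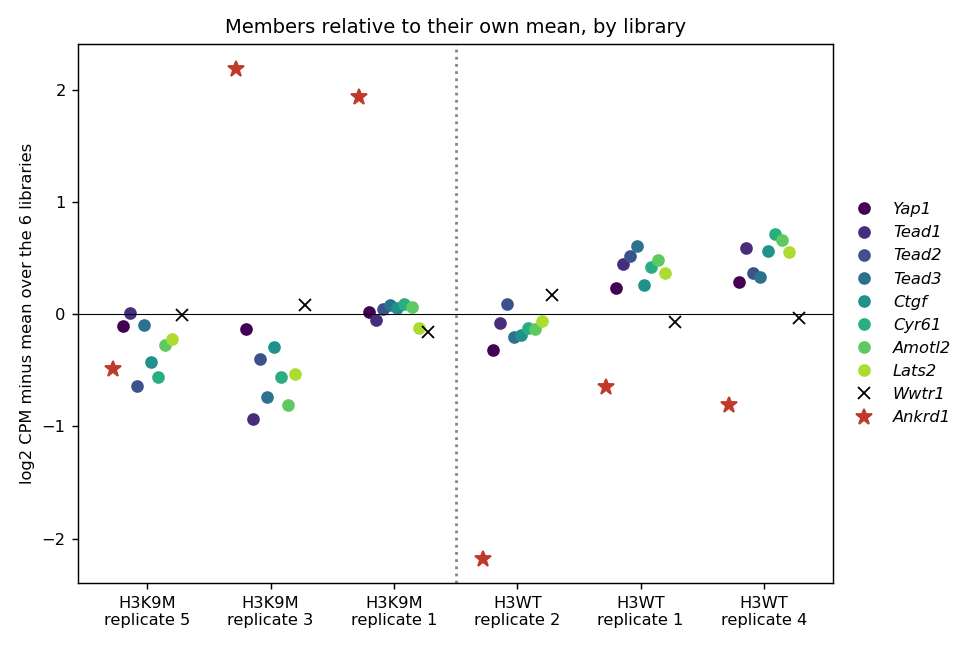
Log2 CPM of each gene minus its own mean over the 6 libraries (vertical axis) in each library (horizontal axis), 8 genes as filled circles, Wwtr1 as a cross and Ankrd1 as a star. The 8 genes lie above 0 in H3WT replicates 1 and 4, between -0.32 and 0.10 in H3K9M replicate 1 and H3WT replicate 2, and mostly below 0 in H3K9M replicates 3 and 5.

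H3WT replicate 2 was the lowest H3WT library for 9 of the 10 genes, Wwtr1 being the exception, and H3WT replicates 1 and 4 both lay above every H3K9M library for 8 genes. With H3WT replicate 2 left out, 9 of 10 genes had an unadjusted p under 0.05, against 17.1% of the 14246 genes then tested. The lower ones numbered 8 of 10, against 8.00% of genes. The groups did not overlap for the same 9, against 37.4% of genes, which for the 8 lower genes restates the order just given. Their counts at an unadjusted p follow in part from that order too, since leaving out their lowest H3WT library enlarges the differences. The shares of all genes are therefore no fair background for the counts without this library. Lats2 then had the smallest adjusted p, 0.0918 (log2 difference -0.74, SE 0.16, edgeR), and Cyr61 had a log2 difference of -0.88 with SE 0.24 (adjusted p 0.138). Without H3K9M replicate 1 the groups did not overlap for 6 genes, against 26.8% of all genes. The count at an unadjusted p under 0.05 was 6, 3 and 4 of 10 when H3K9M replicate 1, 3 or 5 was left out, against 8.48%, 9.75% and 10.5% of all genes. It was 2 of 10 when either H3WT replicate 1 or 4 was left out, against 8.78% and 9.14%. H3WT replicate 2 also had the lowest fibroblast marker sum, though the highest Pdgfra, and the highest chondrocyte marker sum (19674 CPM) of the 6 libraries, and the part of either in these values was not tested.

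**Figure D4:**
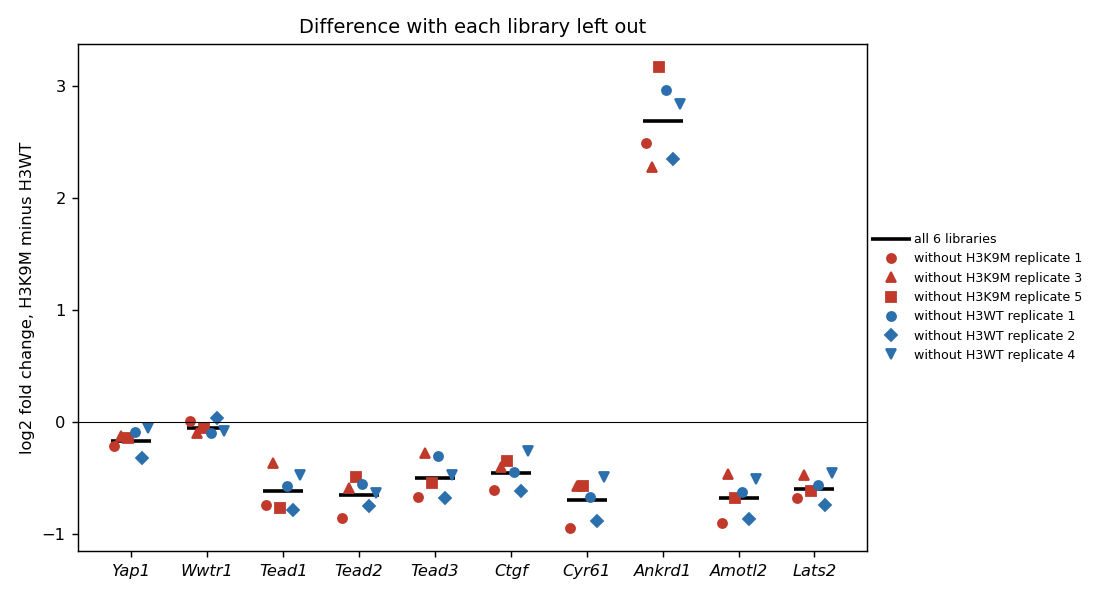
Log2 difference of H3K9M over H3WT (vertical axis) for each gene with all 6 libraries (black bar) and with each library left out (red symbols, an H3K9M library out; blue symbols, an H3WT library out). The 8 lower genes stay below 0 and Ankrd1 stays above 2 in every fit, while Wwtr1 changes sign, reaching 0.04 without H3WT replicate 2.

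Per kilobase of exon (as RPKM), averaged over the 6 libraries, and with the union of exons as the length, the 10 genes ranked Ctgf (630), Cyr61 (500.2), Amotl2 (130.3), Lats2 (31.8), Wwtr1 (30.6), Yap1 (20.1), Tead1 (19.1), Ankrd1 (15.9), Tead2 (10.9) and Tead3 (9.74). Ctgf and Cyr61 overlapped over libraries (458 to 909 and 321 to 782), and neither overlapped Amotl2 (70.3 to 195). Amotl2 in turn lay above all lower genes in every library. Lats2 (21.3 to 45.2) overlapped Wwtr1 (27.3 to 34.3), Wwtr1 lay above Yap1 (15.9 to 24.3), and each neighbour from Yap1 down to Tead3 overlapped the next. With the longest transcript as the length Yap1 (35.2) came before Wwtr1 (31.1) and Tead3 (19.0) before Tead2 (15.3). The place of Ankrd1 is that of neither group, since its mean was 27.5 in H3K9M, above Lats2 at 25.3, and 4.27 in H3WT, the lowest of the 10.

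Genes of the wider pathway were described by lists of its parts. In the Hippo kinase cascade (the STE20-like kinases, their adaptors and related kinases) 18 of 18 genes were tested, 0 passed an adjusted p of 0.05, and 2 had an unadjusted p under 0.05, both lower in H3K9M (2 of 18, against 5.77% of all genes lower and 12.2% in either direction). The median log2 difference of the list was -0.08, or -0.02 without H3K9M replicate 1, -0.17 without H3K9M replicate 5 and -0.05 without H3WT replicate 4. The count at that p was 1 with any H3K9M library left out and 0 when H3WT replicate 1 was. It was 4 when H3WT replicate 2 was left out, against 17.1% of all genes. The pair were Taok2 (-0.31, SE 0.11, adjusted p 0.322, edgeR) and Map4k4 (-0.27, SE 0.11, adjusted p 0.392), kinases that act upstream of LATS. With the length and GC offset they were at -0.10 and -0.12. Among upstream regulators and scaffolds 26 of 29 were tested, 0 passed, and 4 lower and 1 higher had an unadjusted p under 0.05 (against 5.77% and 6.42% of all genes). The median was -0.11, or -0.06 without H3K9M replicate 3, -0.03 without H3WT replicate 4, and from -0.20 to -0.17 without H3WT replicate 2, H3K9M replicate 1 or H3K9M replicate 5. These 5 became 2, 3 and 1 without H3K9M replicates 1, 3 and 5 (against 8.48%, 9.75% and 10.5% of all genes). They became 2 and 8 without H3WT replicates 1 and 2 (against 8.78% and 17.1%). Fat4, a giant cadherin that acts at the head of the pathway, was at 172, 135 and 170 CPM in H3K9M and 404, 144 and 499 CPM in H3WT, and H3WT replicate 2 again lay among the H3K9M values (log2 -1.14 with SE 0.43, adjusted p of 0.373). Frmd6 (-0.34, adjusted p 0.291) and Csnk1e (-0.40, adjusted p 0.402, or -0.26 with the length and GC offset) were also among the lower ones.

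Other genes often used as YAP and TAZ targets were mixed in direction, 12 lower and 5 higher, or 7 lower and 10 higher with the length and GC offset and 8 lower and 9 higher without H3K9M replicate 5. Of 17 tested, 0 passed an adjusted p of 0.05, 1 lower and 2 higher had an unadjusted p under 0.05 (3 of 17, against 12.2% of all genes), with a median log2 difference of -0.13 (0.007 without H3K9M replicate 5 and -0.20 without H3K9M replicate 3). Without H3WT replicate 2 there were 7 at that p, against 17.1% of all genes. Gadd45a, a stress and growth arrest gene, was at 28.3, 41.7 and 29.8 CPM in H3K9M and 10.9 to 16.8 CPM in H3WT, with no overlap (log2 1.26 with SE 0.24, adjusted p of 0.170, edgeR). The DESeq2 Wald test gave it an adjusted p of 0.00146. Nuak2, a kinase of the AMPK family, was at 71.3, 44.2 and 69.6 CPM against 37.1, 38.2 and 49.4 CPM (log2 0.57 with SE 0.21, adjusted p of 0.354). Arhgef17, a guanine nucleotide exchange factor, was at 224, 193 and 229 CPM against 317, 277 and 317 CPM (log2 -0.49 with SE 0.13, adjusted p of 0.227), and its log2 difference was -0.12 with the length and GC offset. Among TEAD partners 3 of 5 genes were tested and 0 had an unadjusted p under 0.05. That count was 1 when H3WT replicate 1 or 2 was left out (against 8.78% and 17.1% of all genes). Vgll4, a repressor that competes with YAP for TEAD, came closest (log2 -0.39 with SE 0.18, adjusted p of 0.442, or -0.26 without H3K9M replicate 3 and -0.24 without H3WT replicate 2). The other CCN genes gave 3 of 4 tested and 0 at an unadjusted p under 0.05, with Wisp2 nearest (log2 -0.40 with SE 0.33, adjusted p of 0.672). Wisp2 was at -0.15 without H3K9M replicate 3, -0.16 without H3WT replicate 4 and -0.64 without H3WT replicate 2.

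Genes of the actin cytoskeleton and of serum response factor, which share several targets with YAP, were mostly lower in direction. All 17 tested had a negative log2 difference, with a median of -0.41 (-0.17 without H3K9M replicate 3 and -0.25 without H3WT replicate 4), where 6934 of the 13761 genes tested were lower. The number of the 17 that were lower was 15 with library size alone, 16 with the length and GC offset, 13 without H3WT replicate 4, and 15 without H3WT replicate 1, H3K9M replicate 3 or H3K9M replicate 5. None passed an adjusted p of 0.05 and 1 had an unadjusted p under 0.05 (1 of 17, against 12.2% of all genes). That gene, Mkl1, encodes the co-activator MRTF-A, and was at 103, 96.5 and 120 CPM in H3K9M and 175, 107 and 162 CPM in H3WT (log2 -0.47 with SE 0.19, adjusted p of 0.383, edgeR), or -0.23 with the length and GC offset. H3WT replicate 2 lay among its H3K9M values. Without that library 5 of the 17 genes had an unadjusted p under 0.05, against 17.1% of all genes. Leaving out H3K9M replicate 3 or either of the other H3WT libraries gave 0.

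**Figure D5:**
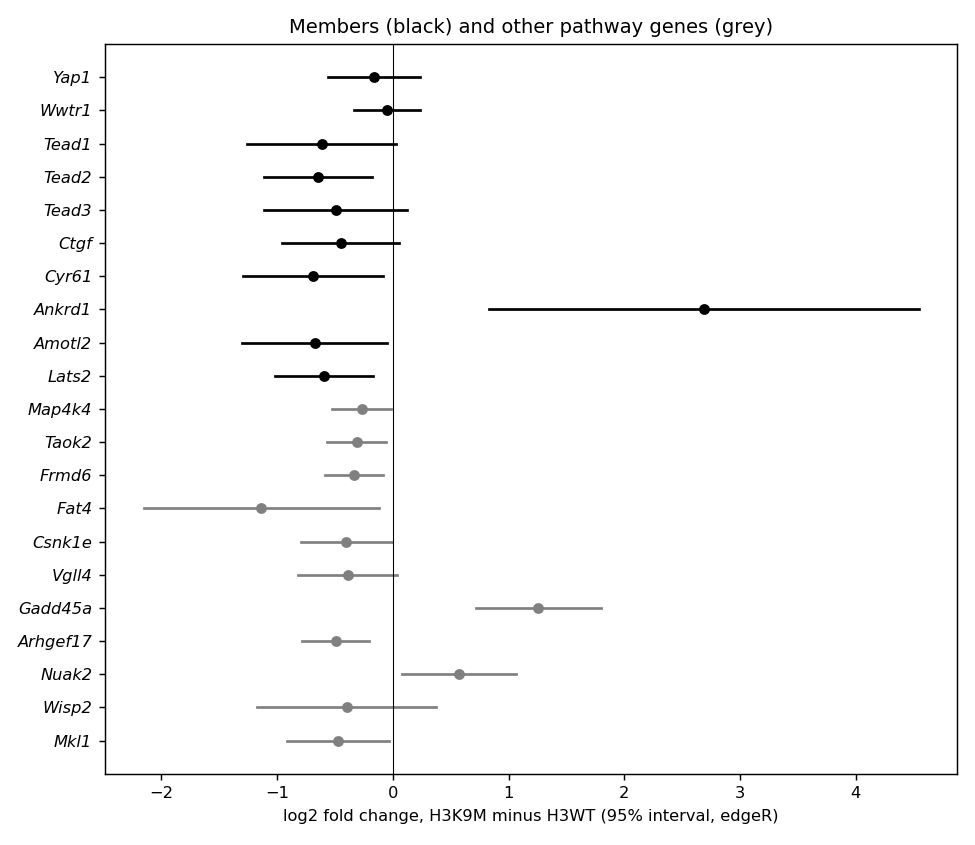
Log2 difference of H3K9M over H3WT (horizontal axis, point) with its 95% interval (line, edgeR) for the 10 genes (black) and the genes of the pathway lists named in the text (grey). The intervals of Yap1, Wwtr1, Tead1, Tead3 and Ctgf include 0, and Ankrd1 has the widest interval, 0.83 to 4.55. Wwtr1, at -0.05 here, turned positive (0.007) with library size alone as the scaling.

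Some of these counts could hold reads of overlapping genes, since the strand setting of the counting is not given. In GENCODE M21 the exons of Yap1, Tead2 and Ctgf overlap Gm20416, Cd37 and Gm15270 on the opposite strand, and those of Lats2 overlap Gm49361 on its own strand. Cd37 had 0 reads in every library, and the other 3 have no row in the count table. No transcript of another gene matched the longest transcript of a member at 90% identity over 200 bases, except that of Gm49361 for Lats2.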

How the data were processed

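RNA was measured by sequencing polyadenylated transcripts. The deposited file holds whole-number counts, not normalized, with 1 row per gene symbol. HISAT2, featureCounts, DESeq2 and the mm10 build (GRCm38) are named, without versions or settings, per the submitters' processing notes. The annotation and strand setting are not given in the sources used here.

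The reported fit was made with edgeR 4.0.16 (R 4.3.3), using filterByExpr, TMM scaling and a robust quasi-likelihood fit with genotype as the only term over 6 libraries, p-values adjusted by Benjamini and Hochberg's method over 13761 genes (threshold 0.05). A standard error is the log2 difference divided by the root of F. Levels per kilobase used the union of GENCODE M21 exons, and correlations used log2 CPM with a prior count of 2. Alternatives were DESeq2 1.42.0, limma-voom (limma 3.58.1), other scalings and filters, a fit without robust estimation, and each library left out. Another was a loess offset for the length and GC content of the longest transcript (span 0.5, values for 96.7% of tested genes). Added after the data were seen were the longest transcript as the length for levels per kilobase and the muscle sum without Acta1. Computations were tested on simulated data. With 200 of 13761 genes changed 2-fold, 20.7% of these passed an adjusted p of 0.05 (edgeR, mean of 3 runs). Unchanged genes made up 10.8% of those that passed. At 4-fold the values were 72.8% and 7.58%. A difference of 2-fold or less in a member can therefore miss the threshold in this design.

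Members and lists were chosen with earlier results of these data known. Named besides the members were list genes with an unadjusted p under 0.05, or else the 1 with the smallest p, and, outside this rule and after their values were seen, Tead4, Myod1 and Des. Some list genes that meet the rule are counted but not reported here by name. Promoters and gene positions are from RefSeq GRCm38.p6, and transcripts were compared with blastn 2.17.0. Libraries held 15113675 or more counts, and a member had at least 109 in any library.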

Additional observations from a re-analysis of the deposited data

How the results depend on the processing

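No member passed an adjusted p of 0.05 in any of the 14 alternatives, and 9 of the 10 members kept their direction in all 14. The exception, Wwtr1, changed sign with library size alone (0.00661) and ran from -0.0964 to 0.0384 with 1 library left out. The count of all genes passing was 0 in the reported fit, 365 with DESeq2 and 36 when all genes with any count were kept (the cause was not tested), and 0 to 91 with a library left out. Members at an unadjusted p under 0.05 numbered 5, and 2 to 9 with a library left out. Members with groups apart numbered 3, 2 with the length and GC offset, and 3 to 9 with a library left out. List counts at that p ran, with a library left out, from 0 to 4 for the kinase cascade, 1 to 8 for upstream regulators, 0 to 1 for TEAD partners, 2 to 7 for other targets and 0 to 5 for the actin list. The share of all genes at that p then ran from 8.48% to 17.1%. No correlation passed under either scaling. With DESeq2, Fat4 passed (adjusted p 0.0393), as did Gadd45a with that wider filter (0.0336) and Fat4 without H3WT replicate 2 (0.0276). No paired analysis was possible because the groups share only 1 replicate number.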

Other observations

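The genes whose pattern over the 6 libraries was most like that of 2 members were looked up among the 13751 other genes tested, as a description with no test. For Yap1 they were Tmem47, Cnrip1 and Gas6 (Pearson's r of log2 CPM 0.994, 0.994 and 0.993). Gas6, which encodes a ligand of the receptor Axl, was at 429, 256 and 308 CPM in H3K9M replicates 1, 3 and 5 and at 665, 190 and 861 CPM in H3WT replicates 1, 2 and 4. For Ctgf they were Dio3, Lima1 and Mmp13 (0.998, 0.994 and 0.991). Dio3, the enzyme that inactivates thyroid hormone, was at 42.3, 16.3 and 11.3 CPM against 83.9, 19.2 and 187 CPM. Mmp13, a collagenase of hypertrophic cartilage, was at 25.4, 14.9 and 10.2 CPM against 43.2, 15.8 and 59.7 CPM. In all 3 of these genes H3WT replicates 1 and 4 were the highest libraries.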
